A study of Mus musculus with 8 samples.

Results

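The genes of glucose uptake, glycolysis, pyruvate handling and glycogen storage were examined in the tibialis anterior muscle of mice, with and without a plasmid for the stress transcription factor ATF4. Of 45 genes listed by name for these functions, 34 had a probe set annotated to that gene alone, out of 14860 genes with such a probe set on the array. They comprised 4 of 4 membrane transporters, 12 of 19 genes of glycolysis, 7 of 9 genes of pyruvate and NADH handling and 11 of 13 genes of glycogen metabolism. Where a gene had several probe sets, that with the highest mean over the 8 arrays was taken.

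The muscles came from male C57BL/6 mice aged 8 weeks. The left muscle received 25 µg of empty pcDNA3 by electroporation and the right muscle 25 µg of pCMV-ATF4-FLAG, a plasmid in which the CMV promoter drives tagged mouse ATF4. RNA was taken on day 11 without fasting, in 4 experiments with 1 array per plasmid. Both groups thus carried plasmid DNA, plasmid and leg cannot be told apart, the share of fibres that took up plasmid is not known here, and the labels do not tell a single mouse from a pool, so p-values measure the spread between these experiments, which may be partly technical.

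Skeletal muscle takes up glucose through membrane carriers, traps it by phosphorylation and either stores it as glycogen or splits it to pyruvate in glycolysis. Pyruvate is reduced to lactate, which crosses the fibre membrane through monocarboxylate carriers, or enters the mitochondrion, where pyruvate dehydrogenase oxidises it unless its kinases hold it back. The tibialis anterior consists mostly of fast fibres, which rely heavily on glycogen breakdown and glycolysis, and many of these enzymes have a muscle isoform beside forms found in other tissues.

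Levels are given as the deposited log2 values, in the order of experiments 1 to 4. A difference is the ATF4 level less the empty vector level (log2, mean of 4 pairs, with its standard error, SE), and each adjusted p was computed with limma and the Benjamini-Hochberg method over 16755 probe sets. Atf4 itself stood at 6.42, 6.24, 6.48 and 6.23 with empty vector and at 6.65, 6.56, 6.72 and 6.18 with ATF4. It was higher with ATF4 in experiments 1 to 3 and did not pass the test (0.18, SE 0.11, adjusted p = 0.846). In experiment 4 it differed by -0.053, against the label, and that experiment also gave the largest differences of Pfkfb3, Ldhb, Gpd2 and Phkb below. For Ldhb, Gpd2 and Phkb its empty vector array was the highest of all arrays. For Pfkfb3, Gpd2 and Phkb its ATF4 array was the lowest. Values without experiment 4 are therefore given beside these differences. The SD of all values on an array ran from 1.11 to 1.32. In experiment 4 the array labelled ATF4 had an SD of 1.14 and its partner 1.31. The 11 measured fibre markers, among them Ckm and Acta1, had mean levels of 9.61 to 9.87 per array, far above the array medians of 4.29 to 4.44.

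None of the 34 genes passed an adjusted p of 0.05 in limma with Benjamini-Hochberg adjustment, and the smallest adjusted p was 0.754. Of all probe sets 3 passed, or 0.0179%. At an unadjusted p under 0.05 there were 3 genes, Pfkfb3, Ldhb and Gpd2, all with lower levels in ATF4 muscle, and 0 with higher levels. Among all probe sets 2.77% were lower and 3.23% higher at that p. The members' differences ran from -0.74 to 0.17 with a median of -0.11, and the median over all probe sets was 0.017. A negative difference was found for 28 of the 34 genes and for 45.5% of all probe sets.

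The direction was not shared by all experiments. In experiments 1 to 4 respectively, 14, 29, 24 and 26 of the 34 genes were lower with ATF4, with median differences of 0.044, -0.10, -0.13 and -0.29. Lower in 4 of 4 experiments were 6 genes, Pfkfb3, Ldhb, Gpd2, Pdha1, Ppp1r3a and Slc16a1, as were 6.64% of all probe sets. Higher in 4 of 4 was 1 gene, Gys1, as were 8.25% of all probe sets. The arrays of both groups overlapped for every one of the 34 genes, while 0.752% of all probe sets had all ATF4 arrays below the empty vector arrays and 1.41% had them above. Without experiment 4 the members' median was -0.070 and 24 of 34 were lower. Without experiment 1 the median was -0.19, and 9 genes were lower at an unadjusted p under 0.05, where 2.98% of all probe sets were.

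**Figure D1:**
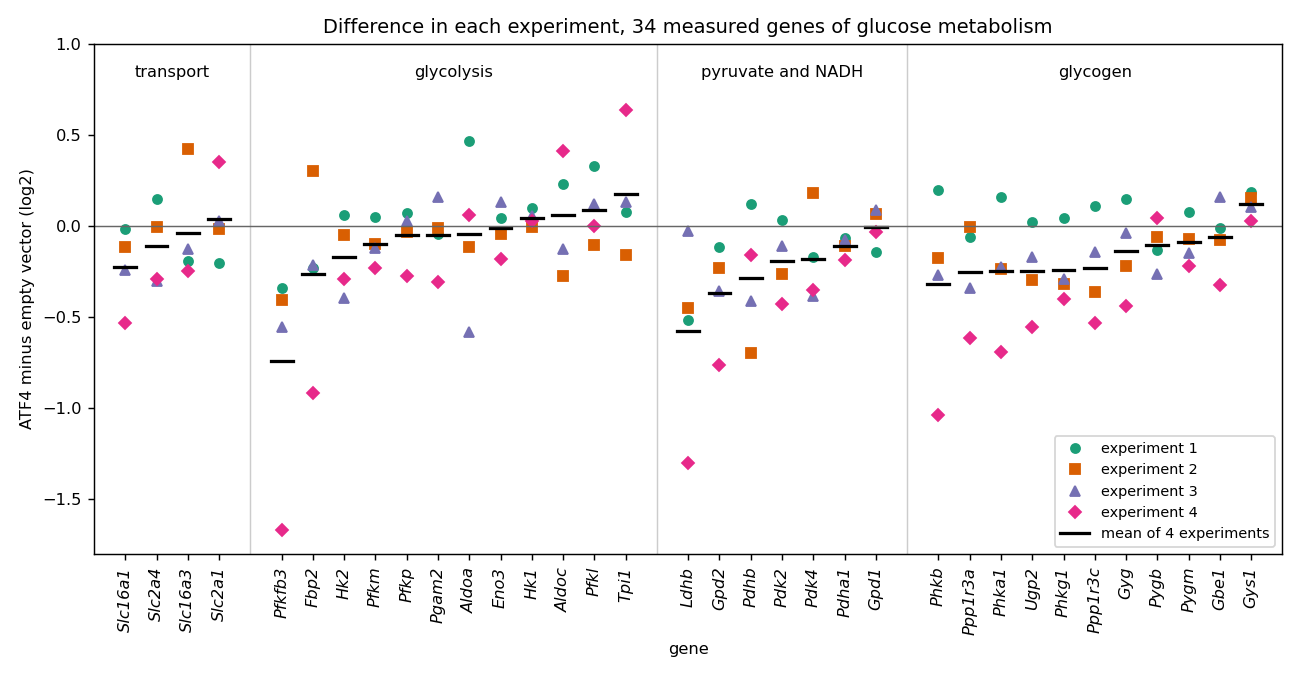
Difference between the ATF4 and the empty vector array (log2, vertical axis) for each of the 34 measured genes (horizontal axis, ordered by mean within the 4 groups); symbols are single experiments and black bars the mean of 4. The means run from -0.74 for Pfkfb3 to 0.17 for Tpi1, and 28 of 34 lie below 0, with experiment 4 lowest for many genes.

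Among the 4 transporters 3 had a negative difference, and their median was -0.073. Slc2a4 encodes GLUT4, the carrier that insulin and contraction bring to the fibre surface. It stood at 5.98, 5.63, 5.91 and 5.84 with empty vector and at 6.13, 5.63, 5.61 and 5.55 with ATF4, a difference of -0.11 (SE 0.12, adjusted p = 0.899). With ATF4 it was higher in experiment 1, nearly level in experiment 2 and lower in experiments 3 and 4, and the 95% interval of its fold change ran from 0.760 to 1.13. The difference was -0.20 without experiment 1 and -0.051 without experiment 4. Slc2a1 encodes GLUT1, the carrier of most cell types. It differed by -0.20, -0.015, 0.03 and 0.35 in the single experiments, a mean of 0.041 (SE 0.13), which was -0.063 without experiment 4.

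The lactate carriers differed in their pattern. Slc16a1 encodes MCT1, which takes up lactate in oxidative fibres. Its levels stood at 4.26, 4.07, 4.27 and 4.51 with empty vector and at 4.24, 3.96, 4.03 and 3.98 with ATF4. It was lower in 4 of 4 experiments (-0.23, SE 0.13, adjusted p = 0.846), most in experiment 4, and the difference without that experiment was -0.12. Slc16a3 encodes MCT4, the lactate exporter of glycolytic fibres, and stood at 5.82, 5.74, 5.80 and 5.91 with empty vector and at 5.62, 6.16, 5.68 and 5.66 with ATF4. It was higher with ATF4 in experiment 2 and lower in the other 3 (-0.035, SE 0.14), and it differed by -0.19 without experiment 2.

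Of the 12 measured genes of glycolysis 8 had a negative difference, with a median of -0.046. Pfkfb3 departed most of all 34 genes. It encodes the bifunctional enzyme that makes the strongest allosteric activator of phosphofructokinase. It stood at 7.94, 7.54, 7.74 and 7.17 with empty vector and at 7.60, 7.14, 7.19 and 5.50 with ATF4. It was lower with ATF4 in every experiment, from -0.34 in experiment 1 to -1.67 in experiment 4, where Atf4 went against the label, and the groups overlapped because the experiments differed in level. The mean difference was -0.74 (SE 0.22, adjusted p = 0.754), a fold change of 0.598 with a 95% interval from 0.424 to 0.844. Without experiment 4 it was -0.43, and after quantile normalization the single differences were -0.35, -0.40, -0.51 and -1.36.

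The promoter windows of Pfkfb3 are shown because this gene differed most. They are RefSeq windows of GRCm38.p6 on the minus strand, from 250 bases before to 50 after a transcript start, at chr2:11553880-11554179 (start A) and chr2:11502041-11502340 (start B). Capitals mark the letters ACGTG, the core of elements bound by hypoxia-inducible factors, on either strand. In start B they form the E-box CACGTG, a palindrome that holds that core on both strands.
Pfkfb3 start A: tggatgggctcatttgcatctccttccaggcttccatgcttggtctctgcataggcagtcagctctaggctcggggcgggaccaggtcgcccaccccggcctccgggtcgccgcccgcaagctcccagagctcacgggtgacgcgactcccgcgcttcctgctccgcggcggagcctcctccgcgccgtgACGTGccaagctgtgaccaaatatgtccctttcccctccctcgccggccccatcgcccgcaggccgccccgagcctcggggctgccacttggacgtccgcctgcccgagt
Pfkfb3 start B: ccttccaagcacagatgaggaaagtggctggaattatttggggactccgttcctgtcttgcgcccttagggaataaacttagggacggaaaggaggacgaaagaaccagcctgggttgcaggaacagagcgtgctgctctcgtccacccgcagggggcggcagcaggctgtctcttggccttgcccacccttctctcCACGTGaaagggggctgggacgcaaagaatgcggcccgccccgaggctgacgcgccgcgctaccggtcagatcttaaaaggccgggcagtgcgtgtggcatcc

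The hexokinases and phosphofructokinase subunits did not pass the test. Hk2, the insulin-responsive hexokinase of muscle, stood at 6.76, 6.66, 6.71 and 7.01 with empty vector and at 6.82, 6.61, 6.31 and 6.72 with ATF4. It was lower in 3 of 4 experiments, most in experiment 3 (-0.17, SE 0.12, adjusted p = 0.853), and differed by -0.092 without that experiment. Hk1, the hexokinase of most tissues, differed by 0.046 (SE 0.11). Pfkm, the muscle subunit of phosphofructokinase, stood at 9.18, 9.21, 8.98 and 9.23 with empty vector and at 9.23, 9.12, 8.86 and 8.995 with ATF4, a difference of -0.10 (SE 0.096). The 95% interval of its fold change ran from 0.800 to 1.09, experiment 1 lay on the other side of 0 from the rest, and the difference was -0.057 without experiment 4. Pfkl and Pfkp, the subunits named for liver and platelets, differed by 0.087 (SE 0.12) and -0.051 (SE 0.11).

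Fbp2, the muscle fructose bisphosphatase, catalyses the opposite of the phosphofructokinase step. It stood at 6.19, 6.02, 6.16 and 7.04 with empty vector and at 5.96, 6.33, 5.95 and 6.12 with ATF4, a difference of -0.26 (SE 0.18, adjusted p = 0.853). The empty vector array of experiment 4 was the highest of the 8, and without that experiment the difference was -0.047.

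The later steps of glycolysis were measured through Aldoa, Aldoc, Tpi1, Pgam2 and Eno3. Aldoa, the muscle aldolase, stood at 11.42, 11.36, 12.72 and 11.54 with empty vector and at 11.89, 11.25, 12.13 and 11.60 with ATF4. Both arrays of experiment 3 were the highest of their group, the pairs went in opposite directions, and the mean of -0.042 (SE 0.15) was 0.14 without experiment 3. Tpi1, triosephosphate isomerase, stood at 9.87, 9.98, 9.79 and 9.23 with empty vector and at 9.95, 9.82, 9.92 and 9.87 with ATF4. Its difference of 0.17 (SE 0.13, adjusted p = 0.859) was the largest positive value of the 34, but the empty vector array of experiment 4 was far below the rest, and without that experiment the difference was 0.019.

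Eno3, the muscle enolase, stood at 10.07, 10.08, 9.94 and 10.21 with empty vector and at 10.12, 10.04, 10.08 and 10.03 with ATF4, a difference of -0.011 (SE 0.093). Its pairs lay on both sides of 0, and the 95% interval of the fold change ran from 0.855 to 1.15. Pgam2, the muscle phosphoglycerate mutase, differed by -0.05 (SE 0.11). Aldoc, the aldolase known from brain, differed by 0.062 (SE 0.15), with 2 of 4 experiments higher.

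**Figure D2:**
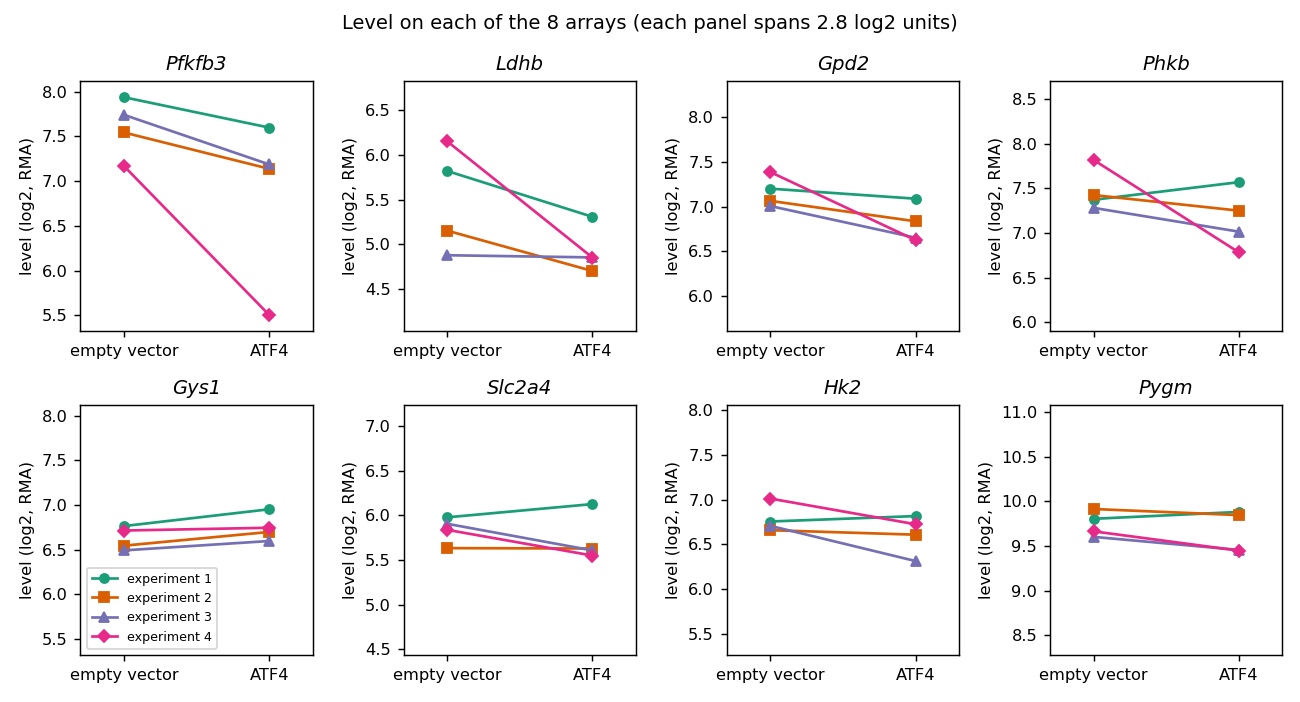
Level of 8 genes (log2, vertical axis, each panel spanning the same range) on the empty vector and the ATF4 array, with 1 line per experiment. The lines of Pfkfb3, Ldhb and Gpd2 slope down in all 4 experiments, most in experiment 4, those of Gys1 slope slightly up in all 4, and those of Phkb, Slc2a4, Hk2 and Pygm slope up in experiment 1 only.

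All 7 measured genes of pyruvate and NADH handling had a negative mean difference, that of Gpd1 only -0.0041, with a median of -0.19. Without experiment 4 the median was -0.13 and 6 of the 7 were lower. Ldhb encodes the lactate dehydrogenase subunit of heart and oxidative muscle. It stood at 5.82, 5.15, 4.88 and 6.15 with empty vector and at 5.31, 4.70, 4.85 and 4.85 with ATF4. The ATF4 arrays lay closer together than the empty vector arrays, and the pair of experiment 3 was nearly level. The mean difference was -0.57 (SE 0.19, adjusted p = 0.765), a fold change of 0.672 with a 95% interval from 0.493 to 0.917, and it was -0.33 without experiment 4. A second probe set annotated to Ldhb differed by -0.099 (SE 0.23). All 10 named probe sets next to it in identifier order belong to chromosome 19, while Ldhb lies on chromosome 6, so what it measures is uncertain.

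The glycerol phosphate shuttle carries electrons of cytosolic NADH into the mitochondrion. Gpd2, its mitochondrial dehydrogenase, stood at 7.20, 7.06, 7.01 and 7.39 with empty vector and at 7.09, 6.83, 6.65 and 6.62 with ATF4. It was lower in 4 of 4 experiments (-0.36, SE 0.13, adjusted p = 0.787), a fold change of 0.777 with a 95% interval from 0.629 to 0.960. Without experiment 4 the difference was -0.23. Gpd1, the cytosolic dehydrogenase of the shuttle, differed by -0.0041 (SE 0.11), with 2 of 4 experiments higher. Whether Gpd2 and Gpd1 differed from each other was not tested.

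Entry of pyruvate into oxidation was represented by 4 genes. Pdk4, the pyruvate dehydrogenase kinase that fasting induces, stood at 7.89, 7.62, 8.23 and 7.69 with empty vector and at 7.72, 7.80, 7.84 and 7.34 with ATF4. It was higher with ATF4 in experiment 2 and lower in the other 3 (-0.18, SE 0.12, adjusted p = 0.853), with -0.30 without experiment 2 and -0.11 without experiment 3. Pdk2, the other kinase among the members, differed by 0.035, -0.26, -0.11 and -0.43, a mean of -0.19 (SE 0.12) that was -0.11 without experiment 4. Pdha1 and Pdhb encode the subunits of the dehydrogenase component itself. Pdha1 was lower in 4 of 4 experiments (-0.11, SE 0.097), and Pdhb ranged from 0.12 in experiment 1 to -0.70 in experiment 2 (-0.29, SE 0.15), with -0.15 without experiment 2.

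The genes of glycogen metabolism had the lowest median of the 4 groups, -0.23, and 10 of 11 were lower. In experiments 1 to 4, 3, 10, 9 and 9 of the 11 were lower, with medians of 0.077, -0.17, -0.17 and -0.44. Without experiment 4 the median of glycogen was -0.10, and pyruvate and NADH had the lowest, -0.13. With array weights in the fit pyruvate and NADH also had the lowest median, -0.24 against -0.17 for glycogen. No gene of the group passed, with adjusted p from 0.846 to 0.946 in limma.

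Phosphorylase kinase switches on glycogen breakdown. Its regulatory subunit Phkb stood at 7.37, 7.43, 7.28 and 7.82 with empty vector and at 7.57, 7.25, 7.02 and 6.78 with ATF4. It was higher in experiment 1 and lower in the other 3, most in experiment 4 (-0.32, SE 0.19, adjusted p = 0.846), and without that experiment the difference was -0.081. Phka1, the alpha subunit of muscle, differed by 0.16, -0.24, -0.22 and -0.69, a mean of -0.25 (SE 0.14), which was -0.10 without experiment 4. Phkg1, the catalytic subunit of muscle, differed by 0.043, -0.32, -0.29 and -0.40, a mean of -0.24 (SE 0.12). All 3 subunits were thus higher in experiment 1 and lower in the rest.

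Pygm, the muscle glycogen phosphorylase that this kinase activates, stood at 9.81, 9.92, 9.60 and 9.67 with empty vector and at 9.88, 9.85, 9.46 and 9.45 with ATF4. It differed by -0.088 (SE 0.094), within a 95% interval of the fold change from 0.809 to 1.09, and by -0.046 without experiment 4. Pygb, the brain form, differed by -0.10 (SE 0.11).

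Glycogen synthesis had values on both sides of 0. Gys1, the muscle glycogen synthase, was higher with ATF4 in 4 of 4 experiments. It stood at 6.77, 6.55, 6.49 and 6.72 with empty vector and at 6.95, 6.70, 6.60 and 6.75 with ATF4, a difference of 0.12 (SE 0.10, adjusted p = 0.871). The pair differences, 0.19, 0.15, 0.10 and 0.031, were small, and the 95% interval of the fold change, 0.921 to 1.28, held 1. Gyg, glycogenin, which primes new glycogen, differed by -0.14 (SE 0.12), or -0.036 without experiment 4. Gbe1, the branching enzyme, differed by -0.061 (SE 0.12). Ugp2, which makes the UDP-glucose that the synthase uses, stood at 8.46, 8.47, 8.46 and 8.56 with empty vector and at 8.48, 8.17, 8.29 and 8.01 with ATF4. Its empty vector arrays spanned a narrow band, and 3 of 4 ATF4 arrays lay below that band (-0.25, SE 0.12, adjusted p = 0.846). Without experiment 4 its difference was -0.15.

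Ppp1r3a and Ppp1r3c encode targeting subunits that bring protein phosphatase to glycogen and so favour its synthesis. Ppp1r3a, the subunit of striated muscle, stood at 8.34, 7.90, 8.06 and 8.62 with empty vector and at 8.29, 7.90, 7.72 and 8.004 with ATF4. It was lower in 4 of 4 experiments, by -0.0029 in experiment 2, with a mean of -0.25 (SE 0.13) that was -0.13 without experiment 4. Ppp1r3c differed by 0.11, -0.36, -0.14 and -0.53, a mean of -0.23 (SE 0.13) that was -0.13 without experiment 4.

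For 11 of the listed genes no probe set of their own was found here. These were Gpi1, Pfkfb1, Gapdh, Pgk1, Pgam1, Eno1, Pkm2, Ldha, Mdh1, Pgm1 and Pgm2. The muscle and ubiquitous forms of enolase, mutase and lactate dehydrogenase could therefore not be set side by side. Mdh1 and Pgam1 shared a probe set, which differed by -0.082 (SE 0.13). The phosphoglucomutases Pgm1 and Pgm2 shared a pair of probe sets with opposite signs and mean levels of 7.57 and 4.40. Which gene each of these shared probe sets measures was not tested. Probe set 6915791 differed by -0.19 (SE 0.11) and was lower in 4 of 4 experiments, and probe set 6931181 differed by 0.19 (SE 0.12) and was higher in 4 of 4. The probe set annotated to Pkm, the current symbol of Pkm2, had all 10 of its named neighbours on chromosome 5, while the gene lies on chromosome 9. It was not used for Pkm2. All 34 probe sets used had neighbours on the chromosome of their gene.

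In experiment 4 the difference of a probe set went with its level, which touches most of these genes. Of the 4423 probe sets with a mean level of 5 or more, 72.4% were lower in experiment 4, against 45.4%, 48.8% and 56.2% in experiments 1 to 3. Of the 34 genes 27 lay in this range, and 24 of those were lower in experiment 4, against 11, 22 and 20 in experiments 1 to 3. The other 7, Hk1, Pfkl, Aldoc, Pdhb, Pygb, Slc2a1 and Slc16a1, had mean levels of 4.02 to 4.64, near the array medians of 4.29 to 4.44. Over the 4 experiments 25 of these 27 genes were lower, against 63.8% of all probe sets in the range. That share was 60.4% at levels 5 to 6, where 5 of the 27 genes lay, and 68.5% to 73.0% in the ranges above. Without experiment 4, 19 of the 27 genes were lower, against 49.8% of all probe sets in the range. Lower in 4 of 4 experiments were 5 of the 27 genes and 519 of the 4423 probe sets. At an unadjusted p under 0.05 in limma, 3 of the 27 genes and 236 of the 4423 probe sets were lower. Between levels 7 and 8 the median of all probe sets in experiment 4 was -0.38. Of the 7 members in that range, Pdha1 stood above this median at -0.18, and Gbe1 and Pdk4 stood slightly above it at -0.32 and -0.35. Ppp1r3c, Phka1, Phkb and Pfkfb3 stood below it at -0.53, -0.69, -1.03 and -1.67.

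Quantile normalization gives every array the same distribution of values. With it 24 of the 34 genes were lower, with a median of -0.073, and 49.5% of all probe sets were lower. The medians in experiment 4 were then -0.053 for glycolysis, -0.066 for pyruvate and NADH, -0.12 for glycogen and 0.0028 for transport. The part of the narrower array in the values of experiment 4 was not tested further.

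**Figure D3:**
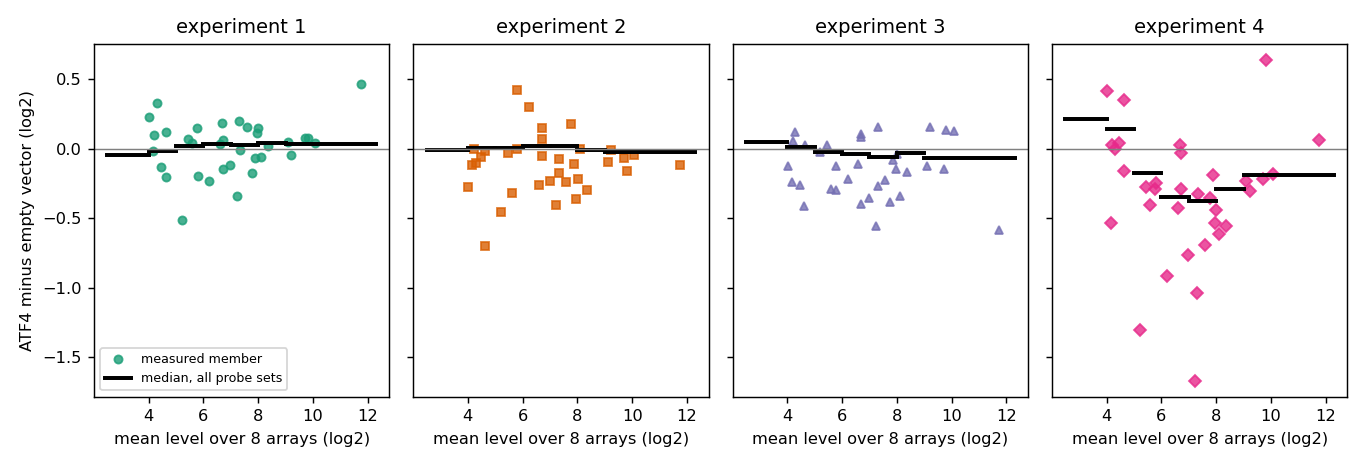
Difference between ATF4 and empty vector (log2, vertical axis) against the mean level over 8 arrays (log2, horizontal axis), 1 panel per experiment; symbols are the 34 measured genes and black bars the median of all probe sets in a level range. The bars stay near 0 in experiments 1 to 3 and in experiment 4 run from 0.22 below level 4 to -0.38 between 7 and 8.

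Further genes of these pathways, listed by name, had 0 members past an adjusted p of 0.05 in limma. Of 14 other genes of glycolysis 7 were lower (median -0.028). These include the Pkm probe set above and that of Pgk2, whose neighbours also lie on another chromosome, and without both it was 5 of 12 (median 0.059). Galm, Hkdc1 and Adpgk, the genes of smallest p there, were higher by 0.22 (SE 0.12), 0.26 (SE 0.14) and 0.24 (SE 0.13). They were dim, with mean levels of 3.77, 3.76 and 4.11. Most probe sets this dim were higher: 37.6% of those under level 4 and 40.0% of those at 4 to 5 were lower. Of 15 others of pyruvate and NADH 10 were lower (median -0.044), among them Pdpr at -0.30 (SE 0.15) and Got1 at -0.21 (SE 0.11). Gpd1l, a relative of Gpd1 with a mean level of 3.98, differed by 0.55 (SE 0.27), from -0.31 in experiment 1 to 1.39 in experiment 4. Of 13 other genes of glycogen 7 were lower (median -0.0079), of 19 of glucose uptake and insulin signalling 11 were lower (median -0.021), and of 6 of the pentose phosphate pathway 3 were lower (median 0.028). Ppp1r3b, the phosphatase targeting subunit best known from liver, was the single gene of these lists at an unadjusted p under 0.05. It stood at 3.33, 3.35, 2.81 and 2.75 with empty vector and at 2.94, 2.57, 2.70 and 1.75 with ATF4, among the dimmest values, and was lower in 4 of 4 experiments (-0.57, SE 0.19, adjusted p = 0.759). Pgm3 and Nhlrc1, next by p in the glycogen list, differed by -0.20 (SE 0.12) and 0.23 (SE 0.16). Of glucose uptake and signalling, Slc16a7, the carrier MCT2, and Slc2a2, the carrier GLUT2, were higher in 4 of 4 experiments (0.30, SE 0.15 and 0.19, SE 0.11). Insr, the insulin receptor, differed by -0.24 (SE 0.13), or -0.14 without experiment 4.

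Of 19 measured regulators of these genes 12 were lower, with a median of -0.076, and 0 passed. At an unadjusted p under 0.05 in limma there were 2, Egln1 and Mlxip, both lower, as were 2.77% of all probe sets. Lower in 4 of 4 experiments were 4 of the 19, and higher in 4 of 4 were 2, against 6.64% and 8.25% of all probe sets. Egln1, the prolyl hydroxylase that marks hypoxia-inducible factors for destruction, stood at 7.53, 7.14, 7.29 and 7.62 with empty vector and at 7.41, 6.74, 6.85 and 6.61 with ATF4. It was lower in 4 of 4 experiments (-0.49, SE 0.15, adjusted p = 0.754), and its difference was -0.32 without experiment 4. Mlxip, a glucose-responsive transcription factor also called MondoA, stood at 5.70, 5.45, 5.54 and 5.64 with empty vector and at 5.19, 4.96, 5.39 and 5.44 with ATF4. Its ATF4 arrays all lay below its empty vector arrays, as did those of 0.752% of all probe sets. Mlxip differed by -0.34 (SE 0.12, adjusted p = 0.782 in limma), or -0.38 without experiment 4. Epas1, a hypoxia-inducible factor, was lower in 4 of 4 experiments (-0.25, SE 0.11). In the other direction, Mlx, the partner of Mlxip, had all ATF4 arrays above the empty vector arrays, as did 1.41% of all probe sets. It differed by 0.13 (SE 0.11, adjusted p = 0.871 in limma), or 0.065 without experiment 4. Mlxipl, the related factor ChREBP, was higher in 4 of 4 experiments (0.091, SE 0.11).

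In whole muscle, fewer cells of a type and less RNA per cell cannot be told apart, so marker levels are given beside these values. All 11 measured fibre markers had a negative difference, from -0.14 to -0.015 with a median of -0.049, or -0.014 without experiment 4. In experiments 1 to 4, 2, 10, 10 and 10 of the 11 were lower, against 51.9%, 49.8%, 47.4% and 42.8% of all probe sets. Slow fibre markers were higher in 4 of 6, with mean levels of 5.64 to 5.996 on empty vector arrays and 5.86 to 6.61 on ATF4 arrays. The differences of these markers ran from -0.86 to 1.26, with 4 markers higher and 1 lower in 4 of 4 experiments. Tnni1, the slow troponin I, had the highest of them and was among the 3 probe sets that passed (1.26 (SE 0.11, adjusted p = 0.025)). Macrophage markers were higher in 10 of 12, with mean levels of 6.07 to 7.13 and of 5.96 to 7.19. The number lower in experiments 1 to 4 was 1, 1, 6 and 7 of the 12. Endothelial markers were lower in 9 of 12, with mean levels of 5.03 to 5.15 and of 4.94 to 5.15. By experiment, 5, 7, 11 and 5 of these 12 were lower. Fibroblast markers were higher in 5 of 8 (6.33 to 6.57 and 6.37 to 6.65), adipocyte markers in 4 of 6 (4.33 to 4.64 and 4.34 to 4.62), Schwann cell markers in 3 of 5 (4.64 to 4.84 and 4.73 to 4.99) and red cell markers in 0 of 2 (4.37 to 4.60 and 4.16 to 4.38). No marker was listed at 0, which does not tell whether it is expressed, since the 1st percentile of the arrays was 1.62 to 2.10. The part of these markers in the differences of the 34 genes was not tested.

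Promoter windows were found in the RefSeq table for 32 of the 34 genes, 43 windows in all, and were searched on both strands. The composite element TGATGNAA, which ATF4 binds with a C/EBP partner, was in 1 of the 43, that of Phkg1, and in 3.97% of all 32851 windows. The cyclic AMP element TGACGTCA was in 0, and in 1.79% of all. The core ACGTG was in 21 windows (48.8%), and in 19.6% of all. These belong to 18 genes, among them Pfkfb3, Gpd2, Hk2, Pfkm, Pygm, Slc2a1, Slc16a1 and Slc16a3. The E-box CACGTG, which overlaps that core, was in 7 windows (16.3%, and 7.15% of all). The E-box CAGCTG, of the kind bound by myogenic factors, was in 11 (25.6%, and 16.3% of all). The MEF2 sequence CTATTTATA was in a window of Ppp1r3a (0.429% of all windows), and CTATTTTTA in a window of Pgam2 (0.493% of all windows). A match describes letters only, and base composition was not matched between the members and all windows.

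The Phkg1 window, chr5:129879039-129879338 on the minus strand of GRCm38.p6, is shown because it is the single one of the 43 searched with the composite element, in capitals. Slc2a4 and Gpd1 had no window here. Its gene differed by -0.24 (SE 0.12).
Phkg1: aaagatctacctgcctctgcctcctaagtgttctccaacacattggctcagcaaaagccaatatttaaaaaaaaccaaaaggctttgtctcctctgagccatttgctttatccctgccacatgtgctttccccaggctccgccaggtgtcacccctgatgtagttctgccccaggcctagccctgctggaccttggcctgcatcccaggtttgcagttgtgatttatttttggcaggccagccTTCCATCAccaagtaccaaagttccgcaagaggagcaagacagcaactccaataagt

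**Figure D4:**
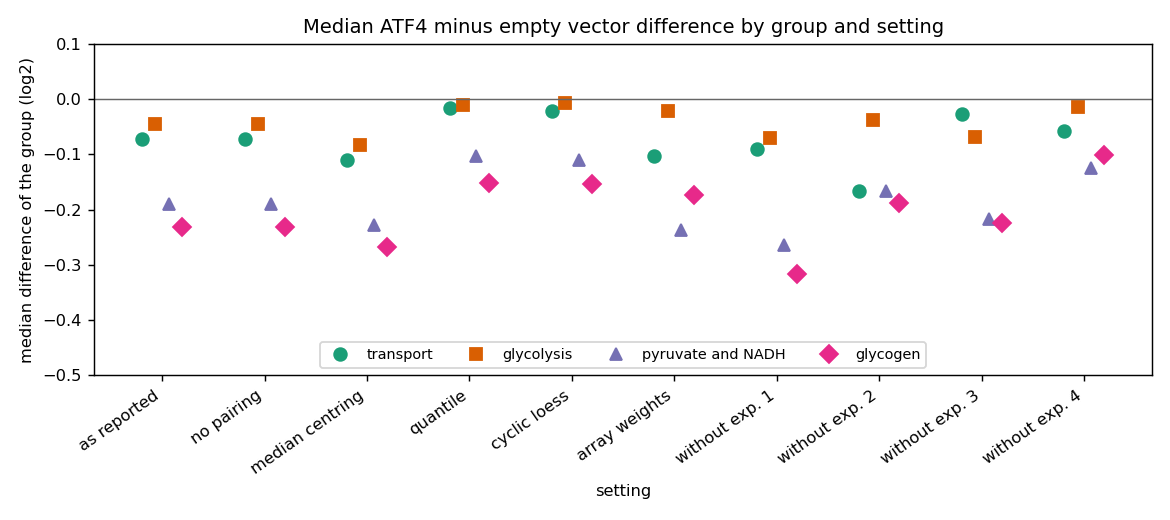
Median difference (log2, vertical axis) of the 4 gene groups under 10 settings of the processing (horizontal axis); each symbol is the median over the measured genes of a group. All medians lie below 0 under these settings, those of glycogen between -0.32 and -0.10, and those of glycolysis and transport lie near 0 with quantile normalization and cyclic loess.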

How the data were processed

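Per the labels, total RNA was turned into biotinylated cDNA with an isothermal amplification kit and read on exon arrays. The authors deposited 1 value per probe set and array, made with RMA per the submitters' processing notes, on what the range of the values shows to be a log2 scale. RMA's version and settings are not stated there. The notes name hg18 without its role, and no probe set coordinates were used. Of 16755 probe sets 14996 are annotated to 1 gene, and only these were named. The number of arrays limits the precision.

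All probe sets were fitted with limma 3.58.1 in R 4.3.3, with experiment as a fixed block and a variance prior that follows the level (two-sided test, Benjamini-Hochberg adjustment, threshold 0.05). The block follows the series design, which sets right muscles against left ones. Deviations of paired arrays from their group means correlated at 0.065, 0.31, 0.55 and 0.051. The fit was tested on simulated data. The members and all lists were chosen with earlier results of these data known. Named genes are members with an unadjusted p under 0.05, rate-controlling or isoform-defining members, the 3 largest differences each way, and up to 3 genes of smallest p per other list. Phkb, Pdha1, Pdhb, Ugp2, Gbe1, Aldoa and Aldoc are described beside them to cover each step, Tnni1 as a called probe set, and Mlx and Mlxipl as the regulators higher in every experiment, chosen after their values were seen. Alternatives were no block, a random block (statmod 1.5.0), other variance priors, median centring, quantile normalization, cyclic loess, removal of the dimmest 25% or 50%, array weights, averaging of probe sets per gene, and dropping each experiment.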

Additional observations from a re-analysis of the deposited data

Results flagged for a closer look

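In 7 of 76 groups of 4 arrays, 1 array lay far from the other 3, where chance gives about 4. With empty vector these were Fbp2 in experiment 4, at 7.04 against 6.02 to 6.19, Aldoa in experiment 3, at 12.72 against 11.36 to 11.54, Phkg1 in experiment 4, at 5.95 against 5.62 to 5.66, and Ugp2 in experiment 4, at 8.56 against 8.46 to 8.47. The mean level of the transporters with empty vector was 5.03 in experiment 2 against 5.16 to 5.18. With ATF4, Slc2a4 stood at 6.13 in experiment 1 against 5.55 to 5.63, and Slc16a3 at 6.16 in experiment 2 against 5.62 to 5.68.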

How the results depend on the processing

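No member passed under any of the 15 alternatives, and the smallest adjusted p of a member was 0.291 (Pfkfb3, array weights, limma). Members at an unadjusted p under 0.05, 3 as reported, numbered 2 to 9, all of them lower. The 9 arose without experiment 1, where 2.98% of all probe sets were lower at that p, and the other 14 alternatives gave 2 to 5. The 3 probe sets called over the whole array became 13 with a random block, 0 without the trend in the prior, 0 with median centring, 7 and 12 without the dimmest 25% and 50%, and 18 with array weights. Leaving out each experiment gave 0 to 2. The cause was not tested. Without the replicate block the count was 3 and 0 members were called. No member was near the threshold with or without the block, so the calls do not show what the pairing did. Without it the SE of Pfkfb3 was 0.37, against 0.22 with it, and 2 members had an unadjusted p under 0.05 in limma. Group medians stayed below 0. Without each experiment they ran from -0.32 to -0.10 for glycogen, -0.26 to -0.13 for pyruvate and NADH, -0.071 to -0.014 for glycolysis and -0.17 to -0.027 for transport. Genes near 0 turned sign. With quantile normalization Eno3 was 0.064, Gbe1 0.033, Gpd1 0.076 and Slc16a3 0.039. With cyclic loess, chosen after seeing the data, Eno3 was 0.043, Gbe1 0.020, Gpd1 0.077, Slc16a3 0.023, Pgam2 0.016 and Hk1 -0.0027. With array weights Aldoc was -0.041, Eno3 0.056, Gbe1 0.043, Gpd1 0.033 and Pgam2 0.051. Without each experiment in turn Aldoa ran from -0.21 to 0.14, Aldoc from -0.056 to 0.17, Eno3 from -0.059 to 0.044, Gbe1 from -0.14 to 0.025, Gpd1 from -0.035 to 0.042, Pfkp from -0.091 to 0.023, Pgam2 from -0.12 to 0.036, Slc16a3 from -0.19 to 0.035 and Slc2a1 from -0.063 to 0.12.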
